A study of Mus musculus with 4 samples.

Results

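Per1 and Per2, the Period genes of the circadian clock, were followed in ribosome footprint counts from warm-shifted mouse fibroblasts with and without an inhibitor of PI3K. Footprints on Per1 rose about 1.94-fold with the inhibitor, whereas footprints on Per2 did not pass the test, with a fold change of 1.15. The deposited tables list 63759 transcripts by UCSC identifier, and 3 of them were taken for these genes. Per1 was read from uc007jpg.2 and uc007jph.2, both of 1282 codons and with identical counts, which were treated as 1 transcript. Per2 was read from uc007cav.1, of 1248 codons.

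The cells were wild-type C57BL/6 mouse embryonic fibroblasts, grown to confluence and synchronised with dexamethasone (Dex), a glucocorticoid that aligns the clocks of cultured cells. At 24 h after Dex all of them were moved from 35 °C to 38.5 °C, the warm temperature shift abbreviated WTS in the labels. The control group (2 libraries) received the shift alone, and the wortmannin group (2 libraries) received it together with wortm, named 17β-hydroxy wortmannin in the series title. Both groups carry Dex and the shift, so neither agent was compared with its absence. The comparison asks what adding the inhibitor changed in the ribosomes on each mRNA of cells under this shift. The footprint counts do not measure the activity of PI3K.

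PER proteins are the negative limb of the clock. CLOCK and BMAL1 (encoded by Arntl) drive transcription of the Per and Cry genes, PER and CRY proteins return to the nucleus and repress that drive, and casein kinases and ubiquitin ligases set how long PER lasts. Per1 and Per2 also respond within hours to glucocorticoids, cAMP and changes of temperature, which is how fibroblast clocks in culture are set.

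The names rest on coding length. Annotated lengths of Per1 and Per2 are 1291 and 1257 codons, and the deposited lengths are 9 codons shorter, the offset that matched 94.5% of the 1466 deposited transcripts over 1500 codons to an annotated length. Neither length is unique, since 5 genes have each of them. Of 20 rows of at least 300 codons around uc007jpg.2, 70.0% had lengths of genes near Per1 (73.7% of 19 around uc007jph.2). Around uc007cav.1 the share was 50.0% of 20, against 35.0% for Inppl1, the next best gene of that length there. Per2 thus stood exactly at the limit of 50.0% used for other names, and Per1 well above it. In the annotation Per1 lies on chromosome 11 from 69095217 to 69109960 on the plus strand, and Per2 on chromosome 1 from 91415982 to 91459324 on the minus strand (GRCm38, the assembly of mm10).

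The 5' leaders of these mRNAs differ in a feature that bears on how ribosomes reach the coding sequence, and are shown here around the start codons. In the annotated Per2 transcript, a start codon directly followed by a stop codon lies 152 bases upstream of the main start, in a leader of 170 bases, so that a ribosome starting there would end at once. The main starts of Per1 and Per2 and this element read as follows, 5' to 3' on the mRNA strand, with the start codon, and for the element also the stop codon, in capitals.
Per2 start-stop element: acgttttccactATGTGAcagcggagggcg
Per2 main start: ccagagcccgacATGaatggatacgtg
Per1 main start: tatggcccagacATGagtggtccccta
The element lies at chromosome 1, 91459301 to 91459306, and the main start at 91450823 to 91450825, both on the minus strand. The Per1 main start lies at chromosome 11, 69100642 to 69100644. Neither annotated Per1 transcript of full length has an element of this kind in its leader of 171 or 194 bases, although these leaders hold 1 and 2 upstream start codons. Among 20422 genes with a leader of at least 20 bases, 55.7% have an upstream start codon and 8.43% have a start codon directly followed by a stop codon, searched on the mRNA strand as ATG followed at once by TAA, TAG or TGA. The counts per transcript do not tell whether any footprint lay on the element, and positions within a transcript were not analysed here.

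Library totals were 15376778 and 31110420 counts for control replicates 1 and 2; the wortmannin pair was shallower, at 7677780 and 7485868. Levels are given as CPM, each count per 1000000 counts of its library after TMM scaling, and as CPM per 1000 codons where genes are compared with each other. The wortmannin pair differed more than the control pair (chi-square per degree of freedom 6.89 against 1.67). The series text speaks of independent experiments without saying which libraries shared one. The p-values therefore cover only how far the libraries of a group lay apart. The count fits estimate this spread partly from all tested transcripts, not from each gene alone. No mRNA libraries of the same cells were used here, and a change in footprints cannot be told apart as mRNA level or translation. Fewer cells with the mRNA and less mRNA per cell cannot be told apart either.

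Per1 was covered by 759 and 1524 footprints in the controls and, with wortmannin, by 617 and 798. These counts correspond to 48.7 and 48.7 CPM without wortmannin and to 82.8 and 106 CPM with it. The control libraries were nearly equal, and both wortmannin libraries lay above them with no overlap. The mean of Per1 rose from 48.7 ± 0.0111 CPM to 94.5 ± 16.5 CPM (SD, n = 2). On the log2 scale this was 0.96 ± 0.13 (SE), with a Benjamini-Hochberg adjusted p = 0.00104 from edgeR's quasi-likelihood fit. The 95% interval of the fold change ran from 1.58 to 2.39. Of all 26602 transcripts tested, 15.8% rose and 17.3% fell by the same rule (33.1% in either direction), so a change as such was common, and 1 call among 2 genes is read against that share.

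**Figure D1:**
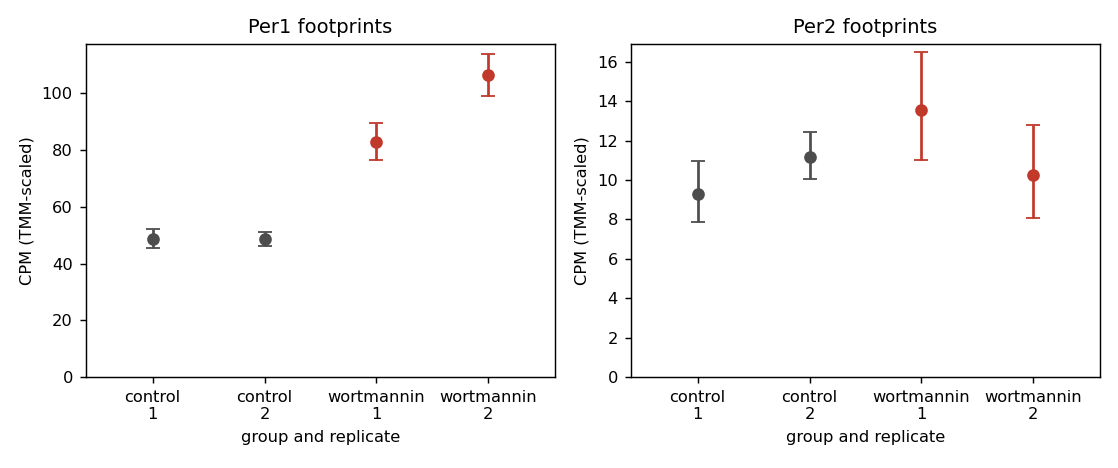
Footprints on Per1 (left) and Per2 (right) in CPM for each of the 4 libraries; bars are exact 95% Poisson intervals of the count. Per1 lies at 48.7 CPM in both control libraries and at 82.8 and 106 with wortmannin, whereas the Per2 groups overlap, with all values from 9.31 to 13.6 CPM.

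The wortmannin libraries differed from each other for Per1. Exact 95% Poisson intervals, which cover counting error only, ran from 76.4 to 89.6 CPM in wortmannin replicate 1 and from 98.9 to 114 in replicate 2, and did not overlap. In the control libraries they ran from 45.3 to 52.3 and from 46.3 to 51.2. The size of the rise thus depended on the library, while its direction did not: it was 0.77 without wortmannin replicate 2 and 1.11 without wortmannin replicate 1 (log2 fold changes). Such fits judge the lone wortmannin library by the spread of the control pair, so only the sizes are given. Leaving out control replicate 1 or 2 gave 0.95 in each case (edgeR, Benjamini-Hochberg adjusted p = 0.0132 and 0.0149).

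The tables hold further transcripts of Per1. A form of 1262 codons (uc011xwu.1), whose coding sequence lies wholly inside the full one, had a log2 fold change of 0.97 ± 0.13. A shorter form of 818 codons (uc007jpf.1) was at 1.001 ± 0.13. Both values repeat the full-length one to a large part, because footprints on shared codons were counted for each form. Of the codons of the short form, 98.8% lie inside the full-length coding sequence, and the short row took 71.0% and 71.1% of the full-length count in the controls, and 73.9% and 72.9% under wortmannin. This exceeded its 63.8% of the codons in all 4 libraries.

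The codons outside the short form give a count that does not repeat it. For these codons, subtracting the short row from the full-length row left 220 and 440 footprints in the controls. Under wortmannin it left 161 and 216. The values correspond to 14.1, 14.1, 21.6 and 28.7 CPM. Footprints on codons of the short form that lie outside the full one were subtracted too, so these counts are approximate. Both wortmannin libraries were again above both control libraries. The mean log2 difference was 0.82 there and 0.99 within the short form, given without a test. The rise of Per1 was thus present in both stretches of its coding sequence.

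Per2 was covered by far fewer footprints, 145 and 350 in the controls and 101 and 77 under wortmannin. Levels were 9.31 and 11.2 CPM without wortmannin and 13.6 and 10.2 CPM with it. The highest and the second lowest value were both wortmannin libraries, so the groups overlapped. The means were 10.2 ± 1.33 and 11.9 ± 2.34 CPM (SD, n = 2), and the log2 fold change of 0.20 ± 0.17 did not pass (edgeR, Benjamini-Hochberg adjusted p = 0.417). The 95% interval of the fold change, from 0.871 to 1.51, includes no change and excludes a fall to below 0.871 of the control level, on the scale of the library and under the spread of this fit. Exact 95% Poisson intervals were 7.86 to 10.95 and 10.05 to 12.4 CPM in the controls, against 11.04 to 16.5 and 8.08 to 12.8 CPM under wortmannin, and those of the wortmannin pair overlapped.

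The direction for Per2 hung on 1 library. Without wortmannin replicate 1 the log2 fold change was -0.05, and without wortmannin replicate 2 it was 0.38 (edgeR, Benjamini-Hochberg adjusted p = 0.861 and 0.0766). Without control replicate 1 or 2 it was 0.08 and 0.35. None of these passed.

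Per codon, Per1 carried more footprints than Per2 in each library. Per1 was at 38.0 and 38.0 CPM per 1000 codons in the controls, and at 64.6 and 82.8 under wortmannin. Per2 was at 7.46 and 8.96 in the controls, and at 10.9 and 8.21 under wortmannin. Of all tested transcripts, 70.8% had a lower footprint density than Per1 in each control library, and 83.4% and 87.7% in wortmannin replicates 1 and 2. For Per2 these shares were 23.5%, 28.3%, 31.9% and 23.8%.

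The ratio of the genes needs no scaling between libraries. Per1 density was 5.10 and 4.24 times that of Per2 in the controls, and 5.95 and 10.1 times under wortmannin. The ratio was higher in both wortmannin libraries than in both control libraries. Its mean log2 value went from 2.22 ± 0.19 to 2.95 ± 0.54 (SD, n = 2), a difference of 0.74, or 1.67-fold. The exact two-sided permutation test gave p = 0.333, the smallest p that 2 libraries against 2 allow, so a difference between the responses of Per1 and Per2 was not shown by a test.

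Long coding sequences leaned upward in this comparison, and both genes are long. Among 1975 tested transcripts of 1000 to 1600 codons with distinct counts, 25.4% rose and 9.97% fell, and the median log2 fold change was 0.17, with quartiles at -0.15 and 0.52. Per1, at 0.96, was above 93.5% of them, and Per2, at 0.20, above 52.2%. Per2 therefore lay close to the middle of transcripts of its length, and Per1 in the upper tail.

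**Figure D2:**
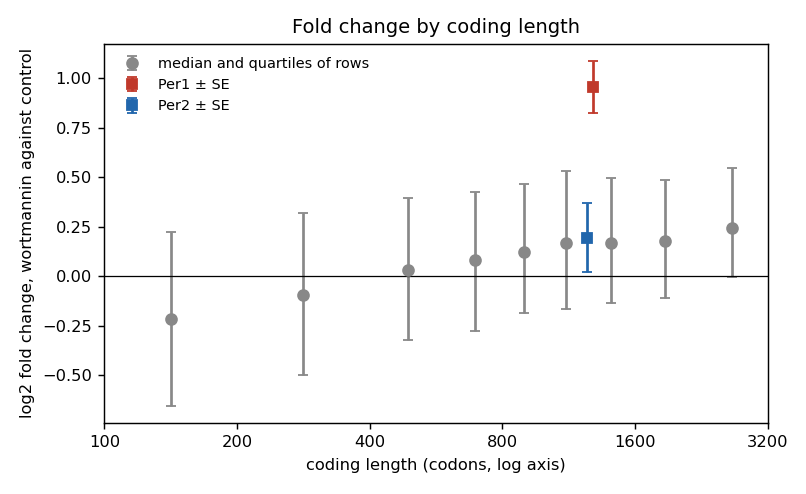
Log2 fold change with wortmannin against coding length (log axis) for tested transcripts with distinct counts from 100 to 3200 codons; grey points are medians with quartiles, squares are Per1 and Per2 with SE. The medians go from -0.21 at 100 to 200 codons to 0.24 at 2200 to 3200, with Per2 near the median of its length and Per1 above the upper quartile.

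Other transcripts share the exact lengths of the Period genes and show why length alone did not name them. At 1282 codons, the rows assigned to Map3k6, a stress kinase, rose by 0.76 ± 0.14 on the log2 scale and those of Gigyf2, a translational repressor, by 0.42 ± 0.11, while Rreb1 at 0.24 ± 0.15 and uc007lsb.2, which received no name, at 0.32 ± 0.14 did not pass (edgeR, Benjamini-Hochberg adjusted p from 0.00356 to 0.262). At 1248 codons, Inppl1, a phosphatase acting on PI3K products, rose by 0.57 ± 0.13, from 18.2 to 26.9 CPM (adjusted p = 0.0104), and uc007ufr.1, without a name, was at 0.0046 ± 0.35. With every library thinned to the total of the shallowest one, Inppl1 was at 0.39 and lost its call (edgeR, adjusted p = 0.0783). Its call was also lost when either control library was dropped. The log2 fold change was then 0.63 with the first control library dropped and 0.49 with the second. In the reported fit, the rise at the length of Per2 therefore belonged to the row assigned to Inppl1. Its direction held in these settings, while its call did not.

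The rest of the clock was read through a list of 30 genes, of which 24 received a row by length and neighbourhood and 21 passed the filter on low counts. Of these 21, 5 rose and 3 fell, and 13 did not pass; the median log2 fold change was 0.10. Over the 8350 tested genes with a name, 14.9% rose and 22.1% fell (37.0% in either direction), and the median was -0.07. Among the 21, the lengths of the other clock genes belong to 6 to 59 genes each, against 5 for Per1 and Per2, while the share of fitting neighbours was lowest for Per2. Without Per1 and Per2, 4 of 19 rose and 3 fell (median -0.04). DESeq2 called 2 higher and 2 lower in the list of 30, and leaving out single libraries gave 2 higher without either control library, 8 without wortmannin replicate 1, and 2 to 4 lower.

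**Figure D3:**
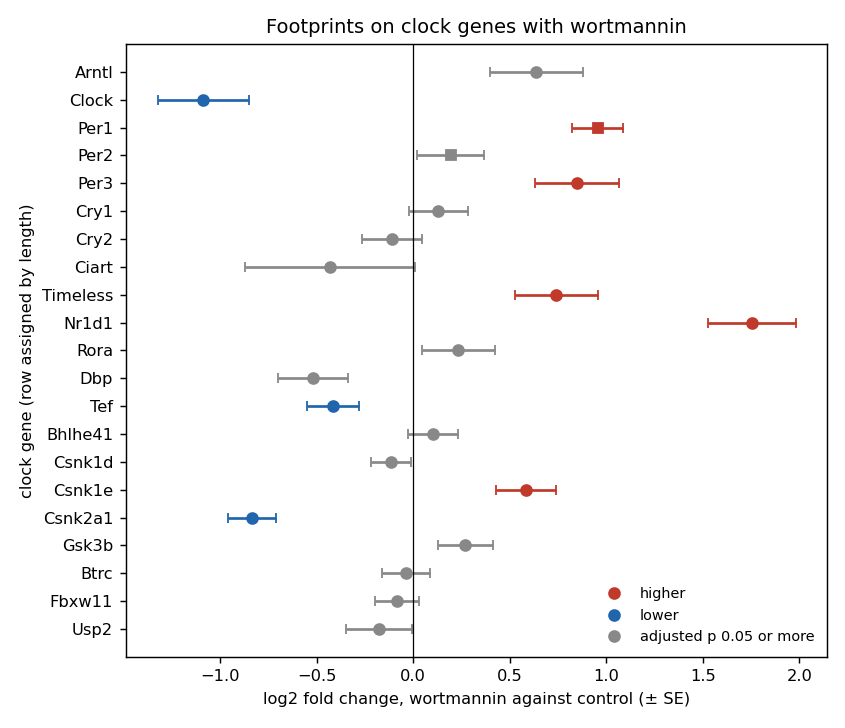
Log2 fold change with wortmannin, ± SE, for the 21 clock genes tested, with Per1 and Per2 as squares; red rose, blue fell and grey did not pass. Nr1d1 at 1.75, Per1 at 0.96 and Per3 at 0.85 lie farthest to the right and Clock at -1.09 farthest to the left.

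Among the repressors, Per3, the third Period gene, was at 3.85 and 3.74 CPM in the controls, and at 5.50 and 8.12 under wortmannin. It rose by 0.85 ± 0.22 on the log2 scale (edgeR, Benjamini-Hochberg adjusted p = 0.0177), with no overlap of the groups. This call was lost in DESeq2, after thinning to equal depth and without either control library or wortmannin replicate 2, with adjusted p up to 0.120. Timeless, a replication factor related to a clock gene of flies, rose by 0.74 ± 0.22 and lost its call in the same settings. Cry1 and Cry2, the partners of PER in repression, were at 0.13 ± 0.15 and -0.11 ± 0.16 and did not pass, nor did Ciart at -0.43 ± 0.44, which was covered at only 1.04 CPM in the controls.

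Of the activators, Clock was at 6.42 and 5.66 CPM without wortmannin and at 2.28 and 3.33 with it. It fell by 1.09 on the log2 scale, with SE 0.24 (edgeR, Benjamini-Hochberg adjusted p = 0.00877), and the call was kept in each setting tried. Arntl, its partner, was at 0.64 ± 0.24 and did not pass (edgeR, Benjamini-Hochberg adjusted p = 0.0726), nor did it in any setting with all 4 libraries. Both its wortmannin libraries lay above both controls. With 1 library left out, the log2 fold change of Arntl ran from 0.31 to 0.88. Those fits take the spread from the group that keeps 2 libraries, so they do not decide the call. Npas2, a stand-in for CLOCK in some tissues, had too few footprints to be tested.

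The largest rise in the list was in Nr1d1, the nuclear receptor REV-ERBα that represses Arntl. It was at 19.5 and 20.1 CPM in the controls, and at 48.2 and 85.5 under wortmannin, and rose by 1.75 ± 0.23 on the log2 scale (edgeR, Benjamini-Hochberg adjusted p = 7.42e-04). As for Per1, wortmannin replicate 2 was the higher one and the control libraries were close to each other. Rora, a receptor with the opposite action on Arntl, was at 0.23 ± 0.19 and did not pass. Among the factors that bind D-box elements, Tef fell by 0.41, with SE 0.13 (edgeR, Benjamini-Hochberg adjusted p = 0.0429), a call lost in 6 of 13 settings. Dbp at -0.52 ± 0.18 did not pass (adjusted p = 0.0584), though it did with library totals as the only scaling and with crossed replicates. Its log2 fold change was -0.26 without wortmannin replicate 1 and -0.86 without wortmannin replicate 2.

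Proteins that act on PER or CRY moved in both directions. Csnk1e, a casein kinase that phosphorylates PER, rose by 0.58 ± 0.16, from 6.66 to 10.1 CPM (edgeR, Benjamini-Hochberg adjusted p = 0.0202), a call lost in DESeq2 and without either control library. Its close relative Csnk1d was at -0.12 ± 0.11 and did not pass. Csnk2a1, the catalytic subunit of casein kinase II, fell by 0.84, with SE 0.12, from 47.3 to 26.5 CPM (adjusted p = 0.00144), and kept its call throughout. The ligase subunits Btrc and Fbxw11, which bind phosphorylated PER, were at -0.04 ± 0.12 and -0.08 ± 0.12, and Gsk3b, Usp2 and Bhlhe41 did not pass either.

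Levels per codon place Per1 among the better covered clock genes and Per2 among the thinly covered ones. In the controls Per1, at 38.0 ± 0.00864 CPM per 1000 codons, was next to Dbp at 42.3 and Btrc at 32.9. Nr1d1, at 32.7, was close to Btrc. Per2, at 8.21 ± 1.06, lay below Cry1 at 13.7 and Cry2 at 13.3 and next to Clock at 7.15 and Arntl at 6.62; its 2 control values overlapped those of Clock and Arntl. Per3 was lower, at 3.44. With wortmannin Per1 reached 73.7 ± 12.9, above both libraries of Dbp at 29.6, and only Nr1d1, at 110 ± 43.6, and Csnk1d, at 82.8, had higher means among the 21 genes.

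**Figure D4:**
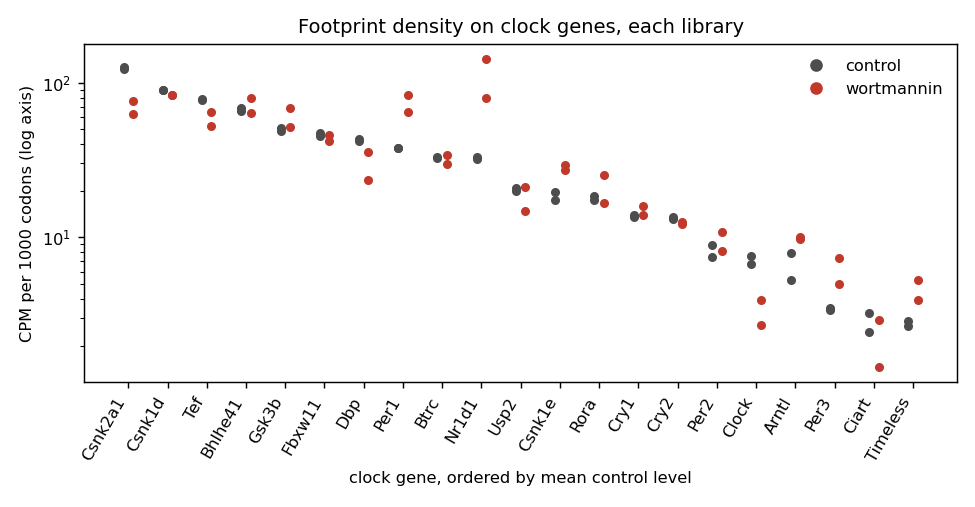
Footprint density in CPM per 1000 codons (log axis) of the 21 tested clock genes in each of the 4 libraries, ordered by the mean control level. Per1 moves from 38.0 in both controls to 64.6 and 82.8 with wortmannin, while the Per2 points of both groups lie between 7.46 and 10.9.

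Genes of the pathway of PI3K were read in the same way. Of 38 PI3K-AKT-mTOR genes 28 received a row and 26 were tested, with 8 higher, 5 lower and 13 not past the threshold (median log2 fold change 0.15), beside 14.9% higher and 22.1% lower over all named genes. None of the gene lists here was matched to that background for coding length. Of transcripts of 1000 to 1600 codons with distinct counts, 25.4% rose and 9.97% fell. The part of length in the list counts was not tested. DESeq2 gave 5 higher and 3 lower, and the counts were 3 and 2 without control replicate 1, 4 and 1 without control replicate 2, and 9 and 8 without wortmannin replicate 1. Irs2, the adaptor that couples insulin and IGF receptors to PI3K, rose by 1.84 ± 0.11, and the transcription factor Foxo3, which AKT keeps out of the nucleus, by 1.41 ± 0.10 (edgeR, Benjamini-Hochberg adjusted p = 1.41e-05 and 3.35e-05). Eif4ebp1, a repressor of cap-dependent translation that mTORC1 inactivates, fell by 0.87, with SE 0.15, a call lost without control replicate 2 (edgeR, Benjamini-Hochberg adjusted p = 0.0590). The Per1 rise of 0.96 was thus smaller than those of Irs2 and Foxo3 on the same scale, a difference that was not tested.

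A temperature list of 11 genes held the heat-shock factor Hsf1, chaperones and cold-induced genes, not all of which need respond to a shift. Of these, 10 were tested, and 6 fell and 1 rose (median -0.55), beside 22.1% lower and 14.9% higher over all named genes. Without control replicate 2 only 3 of them fell, with Hsp90aa1, Hsph1 and Dnajb1 no longer past the threshold, and without control replicate 1 it was 4. The chaperones Hsp90ab1 and Hspa8 fell by 1.78 and 1.27 on the log2 scale, and Rbm3, an RNA-binding protein induced by cold, fell by 1.69. Cirbp, its cold-induced relative, rose by 0.55 ± 0.16 (edgeR, Benjamini-Hochberg adjusted p = 0.0283), a call lost in DESeq2 and without either control library. The chaperones Hspa1b at -0.14 ± 0.11 and Hspa5 at 0.06 ± 0.21 did not pass, nor did Hsf1 (edgeR, Benjamini-Hochberg adjusted p = 0.0892).

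The profile over the 4 libraries was compared with 159 genes of unique length and at least 10 CPM, by the Euclidean distance between log2 CPM values centred on each gene's mean. Nearest to Per1 were Med13, a Mediator kinase-module subunit, at a distance of 0.0503, the cytoskeletal linker Dst at 0.0744, Zfhx3 at 0.0842, Tep1 at 0.166 and the kinase Cdk12 at 0.205, against a median of 0.785. Their log2 fold changes ran from 0.79 to 1.04, close to the 0.96 of Per1. Nearest to Per2 were C4b at 0.196, Hspg2 at 0.208, Svep1 at 0.210, Zzef1 at 0.251 and Kmt2b at 0.260, against a median of 0.549, and none of them passed the test. Fold changes near those of Per1 and Per2 follow from choosing genes by these same values. With 4 libraries many genes share a profile, and likeness here says only that the values moved alike.

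Markers matched the label of the cells. The 10 fibroblast markers with a row summed to 52868 to 53365 CPM in the control libraries and to 45024 to 49307 with wortmannin. The 5 macrophage markers summed to at most 1.21 CPM and the 5 epithelial markers to at most 0.224 CPM, with Adgre1, Itgam, Epcam and Krt18 at 0 in all 4 libraries. Endothelial markers summed to 40.8 to 54.7 CPM, nearly all of it at the length of Flt1, and neural markers to 45.9 to 63.4 CPM, with Sox2 at 0. The neural sum was 59.5 to 63.4 CPM in the controls and 45.9 to 52.8 CPM with wortmannin. Of the fibroblast markers 5 rose and 4 fell (median log2 fold change 0.13); the abundant Col1a1, Col1a2 and Vim fell, while Fn1 rose. The fibroblast and the neural sum were both lower with wortmannin, and their part in the results for the Period genes was not tested.

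**Figure D5:**
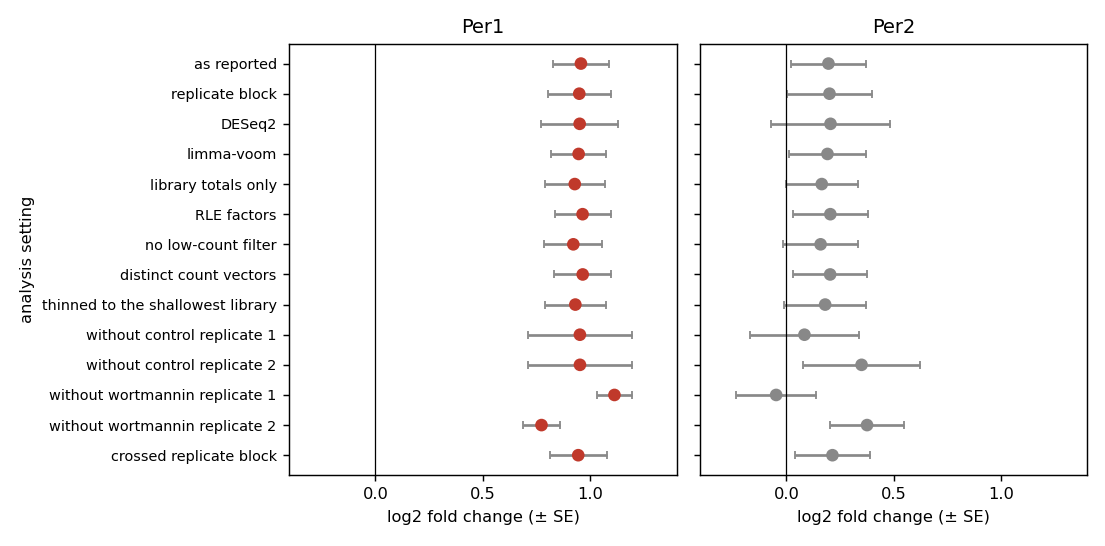
Log2 fold change ± SE of Per1 (left) and Per2 (right) under the reported analysis and 13 other settings; red points have an adjusted p under 0.05. All Per1 points lie between 0.77 and 1.11 and are red, and no Per2 point, between -0.05 and 0.38, is.

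The rise of Per1 passed in the 13 other settings tried and Per2 passed in none of them, as the plot by analysis setting shows. In those with 1 library left out, the spread came only from the group that kept 2 libraries. Thinning every library to the total of the shallowest one left 374 and 379 Per1 footprints in the controls and 600 and 798 under wortmannin, and 79, 79, 97 and 77 for Per2. The log2 fold change of Per1 was then 0.93, and that of Per2 0.18.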

How the data were processed

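Ribosome footprints were counted by the authors per UCSC transcript, and the deposited values are whole-number counts with a coding length in codons (17340 rows have none, and these hold 0 counts). Per the submitters' processing notes, CASAVA 1.8, STAR 2.7.0 and the build mm10 were used; which tool counted the footprints is not stated there. The codon lengths, per the deposited files, are of another kind than counts and were used for naming and density only.

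The test was that of edgeR 4.0.16 under R 4.3.3 (TMM, default expression filter with a minimum count of 10, quasi-likelihood F test, Benjamini-Hochberg at 0.05 over all 26602 rows tested); the SE comes from the log2 fold change and its F value. In simulated counts for these rows, 200 rows were changed and all rows were given the same spread. Of the changed rows kept by the filter, 1.5-fold changes were called in 25.4% (n = 67), 2-fold changes in 77.3% (n = 66) and 4-fold changes in 95.4% (n = 65). In the data 33.1% of the rows were called and the spread differed between groups, so these rates need not hold for this comparison. Alternatives used DESeq2 1.42.0, limma 3.58.1 and other scalings. Python 3.11.15 and scipy 1.17.1 did the rest.

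A row took a gene's name where its length, plus 9 codons, matched a complete coding transcript in GENCODE M21 (this offset matched 94.5% of 1466 rows over 1500 codons), and at least 0.5 of the rows of 300 or more codons within 25 lines had lengths of genes within 1000000 bp. The neighbours were used only to discard names. Of pairs of equal length 4.81% passed (94855 pairs), and 0.718% (14165 pairs) when genes were given the place of a gene 1000 positions away. Both shares are of the pairs tried and are not error rates of the names. Genes with rows over 10 lines apart (606, Deptor among them) were left out, a step added after seeing the rows, and of several rows the one with the highest mean CPM was kept. The named genes are the members, rows of equal length, assigned genes of 3 lists and the 5 nearest profiles. Members and lists were chosen with earlier results of these data known.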

Additional observations from a re-analysis of the deposited data

How the results depend on the processing

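Footprints on Per1 kept direction and call in each setting (log2 fold change 0.77 to 1.11 with single libraries left out), and Per2 ran from -0.05 (-0.048, without wortmannin replicate 1, the reverse of the reported direction) to 0.38 without passing. The ratio of Per1 to Per2 ran from 0.36 to 1.12 (log2 difference). Counts of transcripts higher ran from 1269 to 5724 and lower from 1853 to 6283 with 1 library left out; clock genes from 2 to 8 higher, and PI3K-AKT-mTOR genes from 3 to 9 higher and from 1 to 8 lower. These fits lend a lone library the spread of the other group. DESeq2 called 2114 transcripts higher and 2724 lower, 2 clock genes higher, and 5 PI3K-AKT-mTOR genes higher and 3 lower. Thinning to equal depth left 3 clock genes higher. The causes were not tested.

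The labels number replicates without saying that a number marks an experiment. With a replicate block, 3729 transcripts were higher and 4134 lower, and the log2 fold change was 0.95 for Per1 and 0.20 for Per2. Differences between replicates 1 and 2 correlated at -0.15 between groups, and the crossed pairing, added after seeing the data, gave 4326 higher and 4681 lower. Per2 had 77 to 350 footprints a library, which sets the width of its counting intervals.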

Other observations

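Leaders of other genes were sorted by the feature found in Per2, a start codon directly followed by a stop codon. Of 8213 named and tested genes with an annotated leader, 517 have such an element; 21.5% of them rose with wortmannin and 13.5% fell, with a median log2 fold change of 0.11. Of 3760 genes with other upstream start codons only, 17.8% rose and 16.6% fell (median 0.04). Of 3936 genes without any upstream start codon, 11.3% rose and 28.6% fell (median -0.20). The median coding length was 487, 514 and 434 codons in these classes. The classes differ in length, and genes are not independent replicates, so these shares are a description. Per2, at 0.20 ± 0.17, lay near the median of its class.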
